A study of Mus musculus with 42 samples.

Results

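The Hoxc cluster was examined for binding of SOX2, β-catenin and LEF1 in mouse cells of an epiblast culture model, which the study calls epiblast-like without CHIR and caudal epiblast-like with it. Peaks were taken from all 30 peak lists where the summit, the base of highest signal, lay in chr15:102911103-103046852 (mm10), which is the cluster of 9 Hoxc genes with 10 kb on each side. This gave 1565 of the 9218878 peaks of the full lists and 303 of the 600000 peaks that remained when each list was cut to its 20000 best peaks by q-value. Merged wherever they shared a base, the best peaks of all lists formed 336403 regions across the genome, of which 96 were in the Hoxc interval. Hoxc13 opens the cluster at base 102921103 and Hoxc4 closes it at base 103036852. The Hoxa, Hoxb and Hoxd intervals, drawn the same way, held 91, 125 and 83 regions.

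Hox genes encode homeodomain transcription factors that set the identity of segments along the head-to-tail axis. Their order on the chromosome matches the order in which they are switched on, from the anterior, low-numbered genes to the posterior, high-numbered ones. In the posterior growth zone of the embryo, WNT signalling and the CDX factors are known inputs to the trunk Hox genes. β-catenin is the coactivator that WNT signalling stabilises, LEF1 is one of the TCF/LEF proteins that bring it to DNA, and SOX2 is an HMG-box factor of pluripotent and neural progenitor cells.

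The cells came from the HM1 TetON embryonic stem line, whose unedited form was the wild type (WT). The mutant lines made from it lacked Cdx1, Cdx2 and Cdx4 (CdxKO) or T/Bra, the gene of Brachyury (T/BraKO). All cells grew for 72 h in N2B27 with bFGF and LGK974, a porcupine inhibitor that blocks WNT secretion. CHIR99021, a GSK3 inhibitor that activates the WNT pathway (CHIR), was present from day 2 to day 3 in 27 lists. The remaining 3 lists were SOX2 in WT cells without it (noCHIR). Each of the 10 groups, SOX2, β-catenin and LEF1 with CHIR in 3 genotypes and SOX2 noCHIR, held 3 replicates. A peak list does not show whether a deleted gene is absent, so the genotypes are as labelled. Full lists ran from 26940 to 1008922 peaks, which is the reason for comparing the 20000 best of each. The best peaks reached down to a −log10 q between 3.26 and 14.1, depending on the list, and no 2 lists of a group shared more than 0.04% of their best peaks base for base.

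The sequences below show the 201 bases around the summits on which the results turn, from the GRCm38.p6 reference, 5′ to 3′ on the + strand, which is the strand of all 9 genes. Capitals mark the words searched for on both strands. The CDX words were CAATAAA or CCATAAA or TAATAAA or TCATAAA, the SOX words were CCATTGT or CCTTTGT, and the TCF/LEF words were CTTTGAA or CTTTGAT. The T-box word was AGGTGTGA, and no base in these windows belonged to words of 2 kinds. The first 3 windows are from widely shared regions. The Hoxc13 window is from the region called for SOX2 in all noCHIR and no CHIR WT lists. The last 3 windows are from 2 regions called for β-catenin in all WT and no CdxKO lists. Windows with UTR bases are left out.
Upstream of Hoxc10, chr15:102963761-102963961: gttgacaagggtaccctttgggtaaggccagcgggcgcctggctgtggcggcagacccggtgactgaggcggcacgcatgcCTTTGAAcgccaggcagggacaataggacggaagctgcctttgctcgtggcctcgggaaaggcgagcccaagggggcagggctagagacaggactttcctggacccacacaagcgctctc
Coding exon of Hoxc5, chr15:103014281-103014481: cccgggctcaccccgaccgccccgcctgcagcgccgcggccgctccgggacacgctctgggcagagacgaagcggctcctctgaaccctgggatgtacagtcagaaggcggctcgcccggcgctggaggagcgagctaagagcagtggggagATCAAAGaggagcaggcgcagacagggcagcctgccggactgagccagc
Beyond Hoxc4, chr15:103042469-103042669: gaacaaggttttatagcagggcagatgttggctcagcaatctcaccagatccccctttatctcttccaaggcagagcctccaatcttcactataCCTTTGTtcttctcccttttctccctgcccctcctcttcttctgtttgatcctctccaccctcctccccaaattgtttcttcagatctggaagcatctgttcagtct
Intron of Hoxc13, chr15:102926491-102926691: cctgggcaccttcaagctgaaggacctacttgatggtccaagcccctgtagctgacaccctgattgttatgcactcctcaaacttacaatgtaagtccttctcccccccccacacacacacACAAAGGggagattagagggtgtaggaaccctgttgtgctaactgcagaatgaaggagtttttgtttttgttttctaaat
Intron of Hoxc4, chr15:103024198-103024398: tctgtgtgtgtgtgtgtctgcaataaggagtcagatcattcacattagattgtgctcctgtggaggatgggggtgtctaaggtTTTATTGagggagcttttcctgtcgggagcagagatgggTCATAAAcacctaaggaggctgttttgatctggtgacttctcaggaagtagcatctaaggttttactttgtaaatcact
Beyond Hoxc11, best summit (a SOX2 peak), chr15:102959577-102959777: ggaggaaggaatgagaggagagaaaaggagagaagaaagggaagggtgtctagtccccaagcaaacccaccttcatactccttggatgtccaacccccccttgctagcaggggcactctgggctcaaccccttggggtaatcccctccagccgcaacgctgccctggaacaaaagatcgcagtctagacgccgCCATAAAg
Beyond Hoxc11, middle β-catenin summit, chr15:102959903-102960103: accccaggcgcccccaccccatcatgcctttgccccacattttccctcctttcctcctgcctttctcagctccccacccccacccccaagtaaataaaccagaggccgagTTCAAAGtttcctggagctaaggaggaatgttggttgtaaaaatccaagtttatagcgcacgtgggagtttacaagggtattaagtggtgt

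Among the 20000 best peaks, SOX2 in WT cells with CHIR had 8, 9 and 16 Hoxc peaks (mean 11 ± 4.36, SD, n = 3). SOX2 in CdxKO cells had 9, 13 and 10 (10.7 ± 2.08), and in T/BraKO cells 9, 17 and 17 (14.3 ± 4.62). SOX2 without CHIR had 10, 10 and 7 (9 ± 1.73). Among these best peaks the ranges of all 4 SOX2 groups overlapped. In the full lists SOX2 had 111, 65 and 77 Hoxc peaks in WT with CHIR, above every list of the other SOX2 groups. The other groups had 48, 46 and 46 in CdxKO, 64, 48 and 27 in T/BraKO and 55, 59 and 56 without CHIR. The full WT CHIR lists held 205833 to 1008922 peaks. Those of CdxKO held 86068 to 172423, of T/BraKO 26940 to 266820 and of noCHIR 81239 to 201773. The part of list length in these counts was not tested. Among the best peaks, β-catenin had 19, 12 and 15 Hoxc peaks in WT (15.3 ± 3.51) and 17, 16 and 25 in T/BraKO cells (19.3 ± 4.93). In CdxKO cells it had 7, 11 and 6 (8 ± 2.65), and each of these lists was below each of the other 6. LEF1 had the fewest, with 6, 6 and 5 in WT (5.67 ± 0.577), 6, 4 and 3 in CdxKO (4.33 ± 1.53) and 1, 6 and 3 in T/BraKO cells (3.33 ± 2.52).

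**Figure D1:**
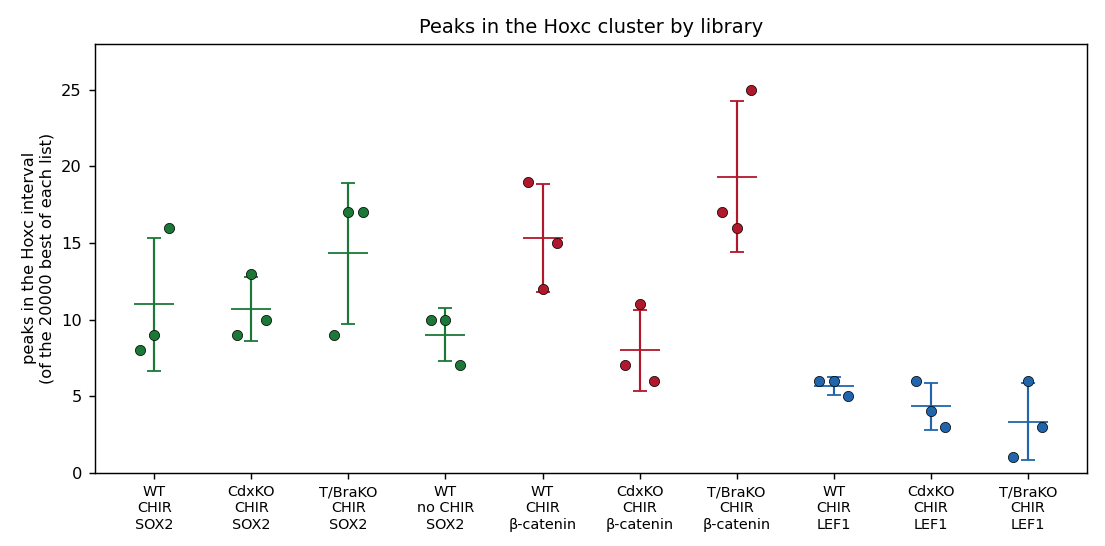
Number of peaks in the Hoxc interval among the 20000 best of each list. Points are lists, bars are the mean and SD of the 3 lists of a group. The 3 CdxKO β-catenin lists sit at 6 to 11, under all WT and T/BraKO β-catenin lists, which sit at 12 to 25.

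For β-catenin, CdxKO minus the other 2 genotypes was −9.33 peaks (mean 8 against 17.3). A two-sided exact permutation test of 3 against 6 lists gave p = 0.0119, the smallest value its 84 assignments allow, and an adjusted p of 0.0714 over 6 tests, so it did not pass 0.05. The CdxKO β-catenin lists had 85949, 40630 and 140907 peaks in full, inside the range of the other 6 (37687 to 469083). In the full lists the same libraries had 19, 17 and 35 Hoxc peaks, against 39, 40 and 84 in WT and 48, 33 and 43 in T/BraKO cells, so that the ranges then overlapped. T/BraKO β-catenin was 7.67 peaks above the other genotypes (exact permutation p = 0.0714, adjusted 0.214). None of the 4 tests on SOX2 and LEF1 had an adjusted exact permutation p under 0.446. With 3 against 3 lists no comparison could go below p = 0.1, and only WT against CdxKO β-catenin reached it (difference of −7.33 peaks, exact permutation p = 0.1, adjusted 0.56 over 7 comparisons). For SOX2, noCHIR minus CHIR was −2 peaks (exact permutation p = 0.8), and the SOX2 groups with CHIR differed from WT by −0.333 in CdxKO and 3.33 in T/BraKO cells.

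The CdxKO effect was −7.33 peaks for β-catenin, −0.333 for SOX2 and −1.33 for LEF1. The difference of these effects, tested by permuting genotypes within each factor, was 7 peaks between SOX2 and β-catenin (exact permutation p = 0.165) and −6 between β-catenin and LEF1 (exact permutation p = 0.2). The drop was not shown to be particular to β-catenin, nor to Hoxc. In peaks per 100 kb, mean β-catenin density at Hoxc was 11.3 in WT and 5.89 in CdxKO cells. It was 12.2 and 7.18 at Hoxa, 15.1 and 11 at Hoxb, and 7.99 and 6.56 at Hoxd. In each cluster the CdxKO mean was also below that of T/BraKO cells (14.2, 12.2, 18 and 11.4 in the same order). These drops were not compared by a test between clusters.

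Across the 9 CHIR lists of each factor, LEF1 (mean 4.44 ± 1.81, SD, n = 9) had fewer Hoxc peaks than SOX2 (12 ± 3.77) and than β-catenin (14.2 ± 5.97). The LEF1 lists held 1 to 6, the SOX2 lists 8 to 17 and the β-catenin lists 6 to 25. SOX2 exceeded LEF1 by 7.56 peaks (two-sided exact permutation test, p = 4.11e-05, adjusted 0.000123) and β-catenin exceeded LEF1 by 9.78 (exact permutation p = 0.000206, adjusted 0.000309). SOX2 minus β-catenin was −2.22 peaks (exact permutation p = 0.387). The order was found with equal list lengths and was not kept in the full lists, where SOX2 exceeded LEF1 by 3 peaks (adjusted exact permutation p = 0.791) and β-catenin minus LEF1 was −16.3 (0.151). LEF1 was lowest in the other clusters too. For LEF1, SOX2 and β-catenin, mean peaks per 100 kb were 3.9, 11.4 and 10.6 at Hoxa, 4.35, 13.5 and 14.7 at Hoxb, and 3.33, 8.75 and 8.65 at Hoxd. Best LEF1 peaks also recurred less over the genome. In WT, 1891 LEF1 regions were called in at least 2 of 3 lists, against 5508 for SOX2 and 9655 for β-catenin.

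**Figure D2:**
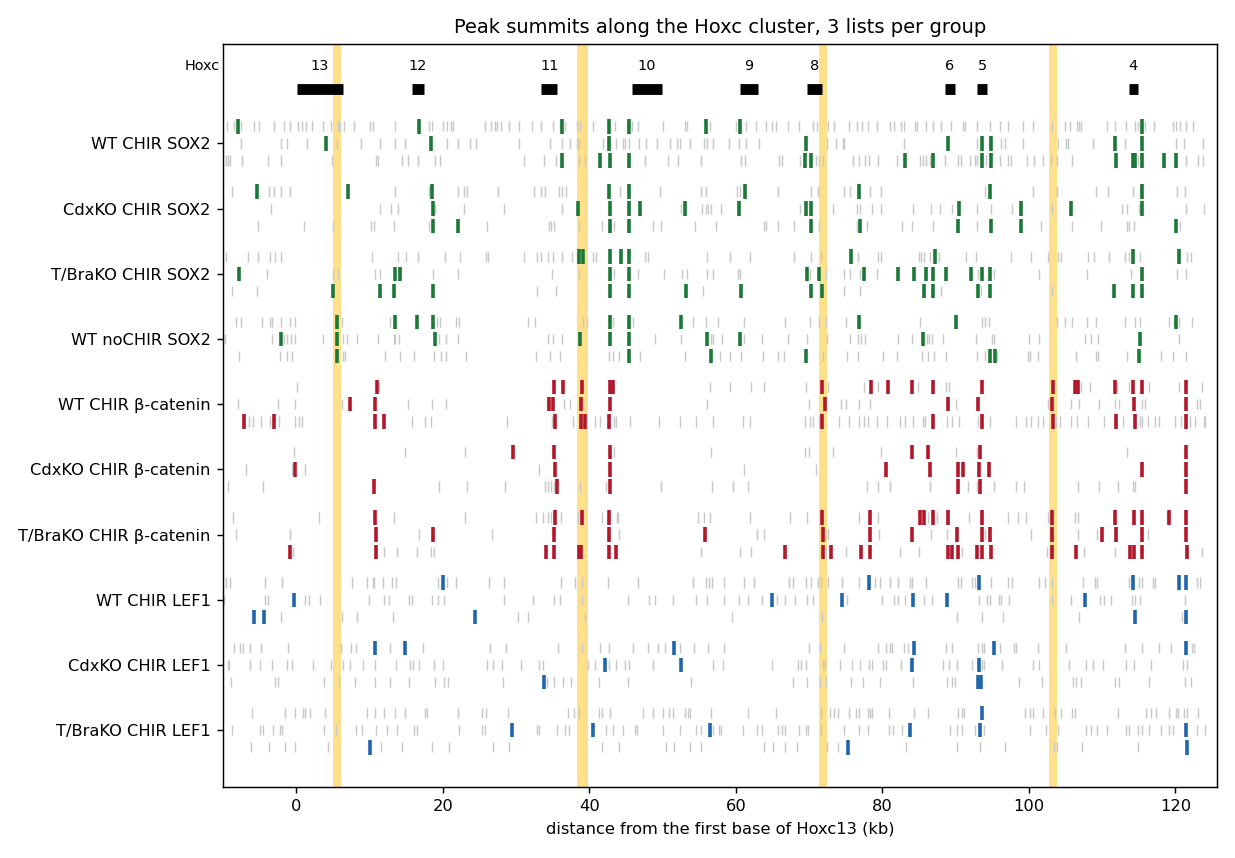
Peak summits along the Hoxc cluster, one row per list, as distance in kb from the first base of Hoxc13. Coloured bars are peaks among the 20000 best, grey bars are other peaks of the full lists, black bars are coding spans, and yellow bands are the 4 regions called in all lists of one group and none of its comparison group. The bars line up between lists at a few positions, and in CdxKO β-catenin lists no peak lies in the yellow bands at Hoxc8 and in Hoxc4.

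Peaks were spread unevenly over the genes. Assigned to the nearest coding span, the 303 best peaks fell 60 to Hoxc4, 42 to Hoxc10, 41 each to Hoxc5 and Hoxc6, 32 to Hoxc8, 29 to Hoxc11, 27 to Hoxc13, 20 to Hoxc12 and 11 to Hoxc9. Genes with longer flanking space could gather more, since 21.8 kb of the interval was nearest to Hoxc4, 21 kb to Hoxc13 and 11.1 kb to Hoxc9. Hoxc6, with 11.3 kb, had 41 peaks, and Hoxc9, with nearly the same space, had 11.

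Hoxc4, Hoxc5 and Hoxc6, the anterior genes with roles in the neck and upper trunk, held more β-catenin and LEF1 peaks, summed over the 3 lists of each genotype, than either Hoxc8 and Hoxc9 or the genes from Hoxc10 to Hoxc13. β-catenin had 11, 5 and 6 peaks there in WT and 11, 9 and 12 in T/BraKO cells, against 4, 8 and 3 in CdxKO cells. The CdxKO and WT ranges overlapped, and the CdxKO range was below the T/BraKO range. SOX2 had 1, 5 and 10 peaks in WT with CHIR, 2, 4 and 4 in CdxKO, 3, 9 and 7 in T/BraKO and 2, 2 and 3 without CHIR. LEF1 had 4, 3 and 2 in WT, 3, 2 and 2 in CdxKO and 1, 3 and 1 in T/BraKO cells.

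Hoxc8 and Hoxc9, which pattern the thorax, were without β-catenin peaks in one genotype. No CdxKO β-catenin list had a best peak there, while WT lists had 2, 1 and 1 and T/BraKO lists 2, 3 and 5. All of the WT ones were nearest to Hoxc8. The CdxKO full lists did hold 5, 2 and 5 weaker β-catenin peaks at these genes, against 10, 7 and 14 in WT. SOX2 in the same CdxKO cells had 2, 3 and 2 best peaks at Hoxc8 and Hoxc9, and WT SOX2 lists had 2, 1 and 2. LEF1 had 1, 2 and 0 in WT, 0 in each CdxKO list, and 0, 1 and 1 in T/BraKO cells.

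Hoxc10, Hoxc11, Hoxc12 and Hoxc13, the posterior genes of the lumbar to tail region, held 3 β-catenin peaks in each CdxKO list. WT lists held 6, 6 and 8 and T/BraKO lists 4, 4 and 8, so that both groups lay above CdxKO here as well as at Hoxc8 and Hoxc9. At Hoxc11, β-catenin had 3 peaks in every WT list, 2, 1 and 1 in CdxKO and 2, 1 and 4 in T/BraKO lists. Of these 4 genes Hoxc10 had the most SOX2 peaks in each group, with 2, 1 and 3 peaks in WT with CHIR, 2, 4 and 2 in CdxKO, 3, 2 and 3 in T/BraKO and 3, 2 and 1 without CHIR. LEF1 had no best peak at Hoxc10 in WT and T/BraKO lists, and 1, 2 and 0 in CdxKO lists. These splits by gene were not tested on their own.

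**Figure D3:**
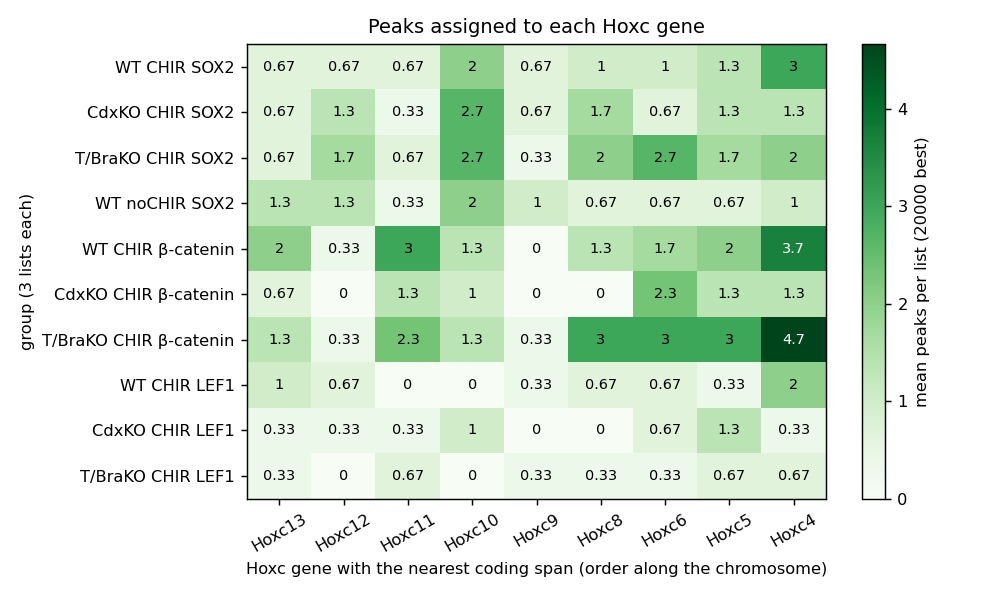
Mean number of peaks per list (20000 best) assigned to each Hoxc gene by the nearest coding span, for each group of 3 lists. Darker green is more peaks. The CdxKO β-catenin row holds 0 at Hoxc8, Hoxc9 and Hoxc12, where T/BraKO β-catenin has a mean of 3 at Hoxc8.

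Of the 96 Hoxc regions, 58 were called in a single list (60.4%, against 83.7% of the 336403 regions of the genome), 19 in at least 5 (19.8% against 6.25%) and 6 in at least 10 (6.25% against 2.81%). SOX2 alone called 33 (34.4%, genome 27.9%), β-catenin alone 25 (26%, genome 19.7%) and LEF1 alone 15 (15.6%, genome 42.5%), and 6 were called for all 3 factors (6.25%, genome 2.42%). These differences from the genome were not tested. The most shared region (chr15:102963212-102964415) lay 2935 bp upstream of the Hoxc10 start and was called in 21 lists. It was called in all 9 β-catenin lists and in 11 of 12 SOX2 lists, but in 1 LEF1 list. The SOX2 summits of those lists fell within 109 bp of each other and the β-catenin summits within 79 bp. The middle β-catenin summit, at base 102963843, was inside the TCF/LEF word printed above, which spans bases 102963842 to 102963848. SOX2 fold enrichment there, the signal over background at the summit, was 16.2, 11.2 and 18.1 in WT with CHIR and 12.3, 8.78 and 6.88 without it. β-catenin fold enrichment was 10.5, 8.94 and 9.91 in WT, 13, 13.8 and 17 in CdxKO and 10.3, 16.8 and 10 in T/BraKO cells. The CdxKO values were thus above all WT ones at this site, with the T/BraKO range overlapping both.

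The region beyond the 3′ end of Hoxc4 (chr15:103042118-103042907), 6580 bp from its coding span, was called in all 9 β-catenin lists, in 5 LEF1 lists and in no SOX2 list among the best peaks. Its β-catenin summits fell within 41 bp and its LEF1 summits within 80 bp of each other, and the middle summit of both was base 103042602. β-catenin fold enrichment was 21.9, 11 and 39.3 in WT, 13.1, 9.48 and 21.5 in CdxKO and 17.9, 13.9 and 26.4 in T/BraKO cells, with overlapping ranges. It held the highest-ranked LEF1 peak of the whole cluster, at rank 82 with 26.9-fold enrichment in T/BraKO replicate 2. The full lists of all 9 LEF1 libraries had a peak in it. SOX2 full lists had weaker peaks in it in 3 WT CHIR, 2 CdxKO, 2 T/BraKO and 1 noCHIR libraries.

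The region over the coding exon of Hoxc5 (chr15:103013622-103015214), which also covers the microRNA gene Mir615, was called in 9 β-catenin, 5 LEF1 and 4 SOX2 lists. Its middle LEF1 summit, base 103014381, lay 52 bases before the TCF/LEF word in the window above, while the middle β-catenin summit was at base 103014669, 47 bases after the start of a CDX word. A neighbouring region in the 3′ UTR of Hoxc5 (chr15:103015397-103016148) was called in 7 SOX2 and 3 β-catenin lists. The region at the 3′ end of Hoxc4 (chr15:103035056-103036972) was called in 10 SOX2, 7 β-catenin and 2 LEF1 lists. It was 1917 bp wide, and the middle SOX2 summit was base 103036534 and the middle β-catenin summit base 103035528. Both factors had summits toward both ends of it. SOX2 summits ran from base 103035268 to 103036618 and β-catenin summits from base 103035415 to 103036588. The middle summits therefore do not separate the 2 factors. In this region β-catenin was called in all WT and T/BraKO lists and in 1 of 3 CdxKO lists.

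In the intron of Hoxc11 (chr15:102955435-102956530) 8 of 9 β-catenin lists and no other list called a peak among the best. With full lists β-catenin was called there in 3 lists of each genotype. SOX2 was then called in 2 WT CHIR, 1 CdxKO, 3 T/BraKO and 2 noCHIR lists, and LEF1 in 1 WT and 1 CdxKO list. Between Hoxc13 and Hoxc12 (chr15:102931613-102932551) β-catenin had a best peak in 3 WT, 3 T/BraKO and 1 CdxKO lists, as did 2 lists of the other factors. With full lists SOX2 was called there in 3 WT CHIR, 2 CdxKO, 2 T/BraKO and 1 noCHIR lists. LEF1 was then called in 1 WT, 3 CdxKO and 2 T/BraKO lists. Past Hoxc12 (chr15:102939335-102940083) 7 SOX2 lists (1 WT CHIR, 3 CdxKO, 1 T/BraKO and 2 noCHIR) and 1 β-catenin list had a best peak. With full lists SOX2 was called there in 3 WT CHIR, 3 CdxKO, 2 T/BraKO and 3 noCHIR lists, and β-catenin in 2 WT and 2 T/BraKO lists. The region at chr15:103007844-103008417 lay inside the gene record of Hoxc6, which starts at base 102998257. Its best summit was 1536 bp before the nearest annotated transcript start of that gene. Among the best peaks, SOX2 was called there in 3 T/BraKO lists, 1 WT CHIR list and no CdxKO or noCHIR list. With full lists SOX2 was called in 3 T/BraKO, 2 WT CHIR, 1 CdxKO and 2 noCHIR lists. β-catenin was called in it in 2 WT and 1 T/BraKO lists and in no CdxKO list. Around its best summit, base 103008037, 3 CDX words lay within 100 bases.

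The next comparison asked which regions every list of a group called while no list of its comparison group did. Of 30 Hoxc regions called in any WT or CdxKO β-catenin list, 3 (10%) were in all WT lists and in no CdxKO list, against 0.517% of the 73538 regions of the genome. No Hoxc region had the reverse pattern, which 0.317% of the genome's regions had. The count was 1 of 8 with the 5000 best peaks (genome 2.06%) and 3 of 98 with regions merged from full lists (genome 0.133%). It was 5 without WT replicate 2, a looser pattern for which no genome share was counted. When any peak of the full lists counted in the same regions, it was 5 of 60 (genome 0.679%). The Hoxc8 and Hoxc4 regions described next were among those 5 of 60 and the Hoxc11 region was not. No test was made of this count, since it draws on the lists already counted above and regions of a cluster share their libraries.

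The first of the 3 lay in the 3′ UTR of Hoxc8 (chr15:102992639-102993285), 69 bp past the coding span. β-catenin fold enrichment there was 13.4, 7.38 and 8.09 in WT and 6.46, 5.76 and 12.3 in T/BraKO cells. The full CdxKO β-catenin lists had no peak in it. The CDX word nearest to its best summit, base 102992921, began 9 bases before it.

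The second was in an intron of Hoxc4 (chr15:103024044-103024762), 5364 bp from the start of the gene. Its nearest coding span was that of Hoxc5, 8859 bp away, so the counts by gene place its peaks under Hoxc5. β-catenin fold enrichment was 13.4, 9.55 and 9.14 in WT and 13.8, 11.1 and 12.4 in T/BraKO cells, and again no CdxKO β-catenin list had a peak of any rank. SOX2 and LEF1 had none among the best, and weaker peaks in 4 SOX2 and 4 LEF1 full lists. The window printed above has 2 CDX words, one starting 17 bases before and one 22 bases after the best summit.

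The third was past Hoxc11 (chr15:102959619-102960673), 2979 bp from its coding span. β-catenin fold enrichment was 6.02, 7.38 and 10.9 in WT. In CdxKO cells replicates 1 and 2 had no peak and replicate 3 had one of 4.92-fold at rank 55520. In T/BraKO cells it was 11.6 and 10.7 in replicates 1 and 3, with no peak in replicate 2. The β-catenin summits lay between bases 102959934 and 102960088, and the middle one was 10 bases before a TCF/LEF word. The CDX word of this region, at bases 102959770 to 102959776, was nearer to its SOX2 summits than to any β-catenin summit.

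**Figure D4:**
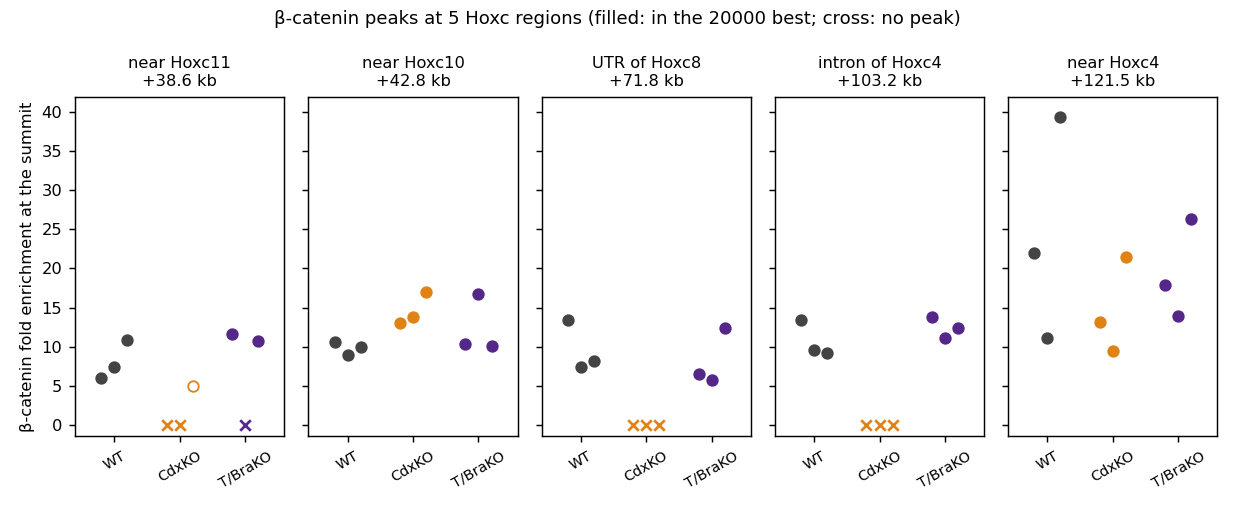
β-catenin fold enrichment at the summit (linear scale) in each list at 5 Hoxc regions, titled by gene and distance from the first base of Hoxc13. Filled points are among the 20000 best, open points are other peaks of the full list, and a cross at 0 marks a list with no peak there. CdxKO lists have crosses or an open point near Hoxc11, in the Hoxc8 UTR and in the Hoxc4 intron, and filled points from 9.48 to 21.5 at the regions near Hoxc10 and beyond Hoxc4.

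All 3 regions thus held a CDX word within 100 bases of their best summit, and 2 of the 3 held one within 100 bases of their middle β-catenin summit, the exception being the region past Hoxc11. Over the genome, 174 of the 380 regions with that β-catenin pattern did (45.8%), against 12.8% of all regions called in any of those 6 lists and 8.58% of the 233 regions with the reverse pattern. A word is a match of letters and not a shown binding site.

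In the other comparisons the Hoxc interval held 1 such region. SOX2 in the intron of Hoxc13 (chr15:102926366-102926925) was called in all 3 noCHIR lists and in none of the WT CHIR lists. This was 1 of 31 Hoxc regions (3.23%), a share near the 3.89% of the genome's regions with the pattern, so it is no result about the cluster. The count was 0 with full lists and with the 5000 best peaks. The reverse was seen in no Hoxc region (0.143% of the genome), but in 3 with full lists and 1 with the 5000 best. SOX2 fold enrichment was 9.73, 10.4 and 17.7 without CHIR, with summits within 30 bp of each other. The full WT CHIR lists had weaker peaks of 5.45-fold and 5.84-fold in replicates 1 and 2 and none in replicate 3. Its SOX word began 21 bases after the best summit.

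No Hoxc region separated SOX2 in WT from CdxKO (0 of 32 in each direction, with 0.0607% of the genome's regions called in WT alone and 0.951% in CdxKO alone) or from T/BraKO cells (0 of 38, with 0.0451% and 0.715%). Nor did one separate β-catenin in WT from T/BraKO cells (0 of 37, with 0.615% in WT alone and 0.819% in T/BraKO alone). For LEF1 it was 0 of 22 against CdxKO (0.0348% in WT alone and 0.0989% in CdxKO alone) and 0 of 21 against T/BraKO cells (0.0969% and 0.0296%). A count of 0 among 21 to 38 regions is near these background shares. For SOX2 the zeros of WT alone did not hold in full lists, where 4 of 139 Hoxc regions were called in WT and not CdxKO lists (2.88%, genome 0.212%) and 4 of 137 in WT and not T/BraKO lists (2.92%, genome 0.241%). With the 5000 best peaks 1 of 8 was called in WT and not CdxKO lists.

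Overlap between factors was read from regions called in at least 2 of 3 lists. In WT cells 3 of 8 SOX2 regions at Hoxc (37.5%) overlapped a β-catenin region, against 47% over the genome, and 3 of 11 β-catenin regions (27.3%) overlapped SOX2, against 26.8%. In CdxKO cells it was 1 of 8 SOX2 regions (12.5%, genome 35.4%) and 1 of 5 β-catenin regions (20%, genome 39.9%). In T/BraKO cells it was 4 of 7 (57.1%, genome 46.2%) and 4 of 15 (26.7%, genome 37.8%). These differences from the genome were not tested. LEF1 had 2, 2 and 1 such regions in WT, CdxKO and T/BraKO cells, of which 2, 1 and 1 overlapped β-catenin, where the genome had 77.4%, 75.1% and 75.1%. None of these 2, 2 and 1 LEF1 regions overlapped a SOX2 region (genome 34.6%, 46.1% and 50.5%), a count too small to set against the genome.

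Over all 96 Hoxc regions, 20.8% had their best summit within 1000 bp of an annotated transcription start (95% Wilson interval 13.9 to 30), against 9.54% of all regions of the genome. The interval is dense in annotated starts, of the 9 Hoxc genes and of non-coding genes such as Hotair, Mir196a-2 and Mir615. The share expected from that density was not computed, so no preference for starts is shown. By the transcripts of the GENCODE basic set, 61 of 96 summits were intergenic, 19 in introns, 11 in UTRs, 4 in coding exons and 1 in a non-coding exon. Gene records can be longer than these transcripts. That of Hoxc5 runs from base 102967443 to 103017429, so a summit counted as intergenic can lie inside it. No such shares were counted over the genome. CDX words within 100 bases of the summit were found in 24% of Hoxc regions (16.5 to 33.4), against 14.5% of the genome's. SOX words were in 13.5% (8.09 to 21.8) against 10.8%, and TCF/LEF words in 15.6% (9.7 to 24.2) against 13.2%. The T-box word was in 0 of 96, for which the Wilson interval reaches 3.85%, and in 1.06% of the genome's regions. By factor, counting regions called in at least 1 of its lists, the 53 SOX2 regions held CDX words in 22.6% (13.5 to 35.5), SOX words in 20.8% (12 to 33.5) and TCF/LEF words in 9.43% (4.1 to 20.3). The 44 β-catenin regions held them in 29.5% (18.2 to 44.2), 9.09% (3.59 to 21.2) and 15.9% (7.93 to 29.4). The 28 LEF1 regions held them in 28.6% (15.3 to 47.1), 10.7% (3.71 to 27.2) and 32.1% (17.9 to 50.7), so the intervals overlapped between factors. The median GC content of the windows was 50% at Hoxc and 45.8% over the genome, a difference that moves with word frequencies and whose part in these shares was not tested. Intervals cover counting error alone.

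The Hoxc interval was compared with its 3 sister clusters as peaks per 100 kb of the 20000 best. SOX2 had 8.29 ± 2.63 peaks per 100 kb at Hoxc (SD over 12 lists), β-catenin 10.5 ± 4.4 (9 lists) and LEF1 3.27 ± 1.33 (9 lists), where a list spread evenly over the genome would have 0.734. Hoxb was denser than Hoxc for SOX2 in all 12 lists (Hoxc minus Hoxb −4.17 peaks per 100 kb, two-sided exact sign-flip permutation test, p = 0.000488, adjusted 0.00439 over 9 tests). It was denser for β-catenin in all 9 lists (−4.25, exact permutation p = 0.00391, adjusted 0.0176). For LEF1 Hoxc was lower in 8 of 9 lists (−1.08, exact permutation p = 0.0547, adjusted 0.164). With full lists the gaps to Hoxb were −3.35 and −5.59 per 100 kb for SOX2 and β-catenin, and neither passed (adjusted exact permutation p = 0.231 and 0.174). Without the 10 kb flanks the β-catenin gap was −3.11 (adjusted exact permutation p = 0.105). Against Hoxa and Hoxd no factor passed, the smallest adjusted exact permutation p being 0.204, and Hoxc minus Hoxd was 1.82 ± 3.64 peaks per 100 kb for β-catenin (SD, n = 9).

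**Figure D5:**
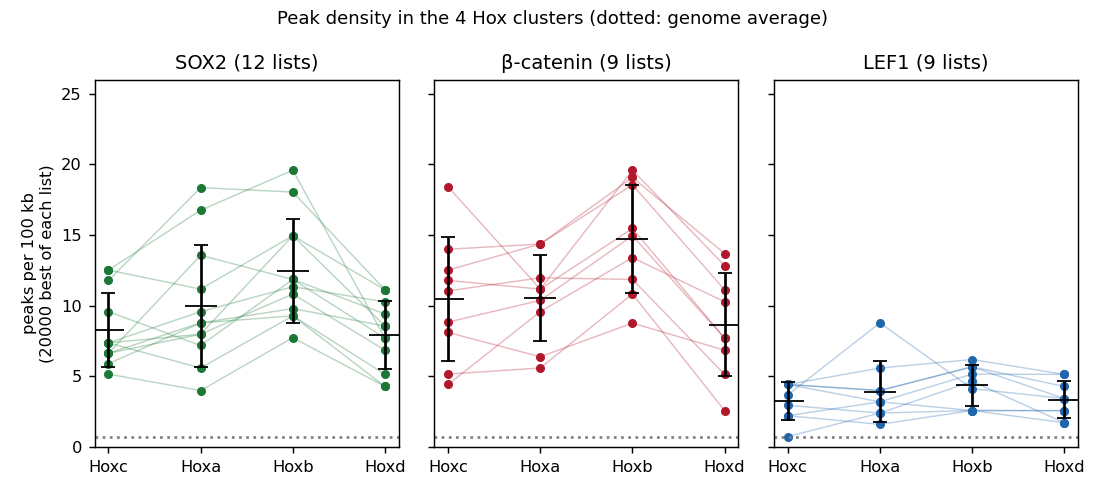
Peaks per 100 kb among the 20000 best in the 4 Hox clusters. Points and thin lines are lists, black bars are the mean and SD, and the dotted line is the genome average of 0.734. Hoxb lies above Hoxc in all SOX2 and β-catenin lists.

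The 3 protein-coding genes outside the Hox clusters whose mean peak number over the 10 groups was most like that of the Hoxc interval were Grin2c (Pearson r = 0.958), Flrt3 (0.956) and Zic5 (0.949), of 4578 genes with at least 1 peak per list on average. Grin2c encodes an NMDA receptor subunit, Flrt3 a membrane adhesion protein and Zic5 a zinc finger factor. The 10 points share libraries with the Hoxc values and the 3 were the highest of many, so these are descriptions. Zic5 had a mean of 3.67 β-catenin peaks in WT, 1 in CdxKO and 5.33 in T/BraKO cells. This is the same order of genotypes as in the Hoxc interval, which the choice by correlation over these groups favoured.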

How the data were processed

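ChIP-seq libraries for SOX2, β-catenin and LEF1 (3 biological replicates in each of 10 groups, 30 lists) were analysed, and 12 input samples were not analysed here. According to the study's methods the authors trimmed reads, aligned them with BWA to mm10, filtered them, and called narrow peaks per library with MACS2 within the nf-core/chipseq workflow, at the default q of 0.05. Input chromatin was kept as a control, but the sources read here do not state which input, if any, entered each peak call. The deposited lists give, per peak, fold enrichment at the summit (a ratio), −log10 p and −log10 q and the summit offset. They hold no read counts, so sequencing depth is unknown and list length stands in for it. The order of peaks in a list was set by −log10 q, with ties broken by −log10 p and fold. Genes and transcripts were taken from the basic set of GENCODE M21. Group comparisons used exact permutation tests over lists with Benjamini-Hochberg adjustment, checked on simulated data. Each of the 9 Hoxc genes was named, with the 10 regions called in most lists and every region called in 3 of 3 against 0 of 3, except that 1 of those 10 is not reported here. The window at the middle β-catenin summit past Hoxc11 was added after its values were seen. The members and lists were chosen with earlier results of these data known. Same-numbered libraries did not deviate together over 100000 bp bins (correlations between −0.0536 and 0.0638 in 21 pairs), so numbers were not used as pairs. Python 3 with numpy, pandas and scipy was used. Alternatives were the full lists, the 5000 or 10000 best peaks, −log10 q of at least 3, no flank, summit windows of 250 bp to each side, and leaving out each list.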

Additional observations from a re-analysis of the deposited data

How the results depend on the processing

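Peak lists hold called peaks and no reads, so a missing peak says only that none passed in that list, and list length varied widely. Replicate libraries are few, and no 3 against 3 comparison can pass 0.05. With full lists, T/BraKO minus WT turned to −38 for SOX2 and −13 for β-catenin peaks, and LEF1 minus WT to 6.67 in CdxKO and 10.7 in T/BraKO cells. At −log10 q of at least 3 the same 4 differences were −32.3, −5.33, 1.67 and 8. Without flanks CdxKO minus WT LEF1 was 0.333, and with 10000 best peaks (chosen after seeing the data) T/BraKO minus WT SOX2 was −2. Per 1000 peaks of the full list (also chosen after seeing the data), SOX2 noCHIR minus CHIR was 0.305 and CdxKO minus WT 0.129. Against the other 2 genotypes, T/BraKO SOX2 was −19.2, CdxKO LEF1 1.33 and T/BraKO LEF1 7.33 with full lists, T/BraKO SOX2 −17 and T/BraKO LEF1 7.17 at the stricter q, and CdxKO LEF1 0.833 without flanks. CdxKO β-catenin kept its direction in all of these. Between factors, full lists gave 19.3 for SOX2 minus β-catenin, 3 for SOX2 minus LEF1 and −16.3 for β-catenin minus LEF1, the stricter q gave 13.4, 4.11 and −9.33, and SOX2 minus LEF1 was 1.56 with 5000 best peaks. In peaks per 100 kb, Hoxc minus Hoxb no longer passed at −3.35 for SOX2 and −5.59 for β-catenin with full lists, at −4.78 for β-catenin with the stricter q and at −3.11 for β-catenin without flanks. β-catenin Hoxc minus Hoxd passed with 5000 best peaks at 1.83, and Hoxc minus Hoxa was 1.13 without flanks. For LEF1, Hoxc minus Hoxd was 1.01 with full lists, 0.0600 with 5000 best peaks and 1.85 at the stricter q, where Hoxc minus Hoxa was 0.0846. The cause of these changes was not tested.

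Regions called in all lists of one group and no list of the other moved as follows. In parentheses is the share of the genome's regions under the same setting. Regions called in WT SOX2 and not in noCHIR lists were 3 of 147 with full lists (0.244%), 1 of 9 with 5000 best peaks (0.944%) and 2 of 80 with full lists scored in the same regions, chosen after seeing the data (0.714%). For noCHIR alone there were 0 in each of the 3 (0.162%, 6.32% and 1.53%). For WT SOX2 against CdxKO there were 4 of 139 (0.212%), 1 of 8 (0.272%) and 1 of 77 (0.533%), and against T/BraKO 4 of 137 with full lists (0.241%) and 1 of 76 when scored in the same regions (0.651%). For WT β-catenin against CdxKO there was 1 of 8 with 5000 best peaks (2.06%) and 5 of 60 when full lists were scored in the same regions (0.679%), and T/BraKO LEF1 against WT had 1 of 149 with full lists (0.23%). Words within 50 bp were found in 12.5% of Hoxc regions for CDX (genome 7.09%) and 8.33% for TCF/LEF (genome 7.74%). Of 3 gene groups in 10 sample groups, the assignment to the nearest start moved 1 by more than 1 SD, CdxKO LEF1 at Hoxc8 and Hoxc9, from 0 to 0.667 peaks on average.

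Leaving out each list in turn gave these ranges. SOX2 noCHIR minus CHIR ran from −3.5 to 0.5, CdxKO minus WT SOX2 from −1.83 to 2.17, CdxKO LEF1 minus the other genotypes from −1 to 0.5, and CdxKO β-catenin minus the other genotypes from −10.8 to −7.8. In peaks per 100 kb, LEF1 Hoxc minus Hoxb ran from −1.45 to −0.847 and passed once, LEF1 Hoxc minus Hoxd from −0.293 to 0.304, SOX2 Hoxc minus Hoxd from −0.0345 to 0.812, and β-catenin Hoxc minus Hoxa from −0.991 to 0.559. Regions called in all lists of one group alone ran from 3 to 5 for WT β-catenin against CdxKO, and from 0 to at most 2 in the other comparisons, with 1 throughout for SOX2 noCHIR against CHIR. In a replicate block of same-numbered lists, the paired CdxKO minus WT β-catenin difference was −7.33 (exact sign-flip permutation p = 0.25, the smallest that 3 pairs allow) and no paired comparison passed.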

Other observations

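The interval also holds non-coding genes. Mir615, a microRNA gene in the Hoxc5 locus, had a best peak within 1000 bp in 9 of 9 β-catenin lists, 7 of 12 SOX2 lists and 5 of 9 LEF1 lists, and in the full lists all 30 libraries had one. Mir196a-2, a microRNA gene between Hoxc10 and Hoxc9, had one in 3 SOX2, 2 LEF1 and no β-catenin lists. Hotair, the long non-coding RNA between Hoxc12 and Hoxc11, had one in 1 SOX2 and 1 LEF1 list and in no β-catenin list, and in the full lists it had one in 10, 7 and 4 libraries of these factors.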
